A study of Mus musculus with 2 samples.

Results

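Small RNAs cut from the exons of ordinary genes, that is of messenger RNAs, long noncoding RNAs and pseudogenes, were examined in mouse brain. A member was a tag, a distinct sequence with its read count, that had no undetermined base and 1 to 60 perfect matches in the genome, that lay on the sense strand inside an exon of the GENCODE M1 annotation, and that touched no gene annotated as miRNA, rRNA, mitochondrial rRNA, mitochondrial tRNA, snoRNA, snRNA or misc_RNA. This rule selected 44053 of the 789591 distinct tags in the data (5.58%), of which 20077 were seen in the young and 25521 in the old library. The tags lay in 12137 genes, and 10032 genes had at least 1 tag that matched no other gene. The rule used position and annotation only and no measured level.

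The study compared small RNAs of whole brain between young and old male mice of C57BL/6J, a common inbred strain. The young mice were 5 months and the old mice 24 to 25 months of age, and the libraries of 2 mice were combined at each age, so that each age is 1 library. RNA of 18 to 30 nucleotides was taken from a gel, and the tags read from it were 17 to 26 nucleotides long. The young library held 4523267 reads and the old library 6658732, which sets the precision of every value below. No replicate error can be computed from 1 library per age, and a ratio between the libraries compares these 2 pools and not the ages as such.

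Fragments of long RNAs enter small RNA libraries by several routes. Messenger RNAs are degraded in steps that leave short pieces. RNA polymerase II can release very short RNAs close to a promoter. Some exons contain tRNA, snoRNA or ribosomal RNA sequence that the annotation does not list as such, and mitochondrial messenger RNAs, which are cut from long polycistronic transcripts, are among the most abundant RNAs of the brain. A fragment with a fixed 5′ end is a property of processed RNAs such as miRNAs, whereas fragments of random degradation begin at many positions. In bulk tissue, fewer cells of a type and less RNA per cell cannot be told apart.

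Sequences of 4 sets of starts are shown first, because the results below turn on them. Capitals mark any of 10 words of 5 bases that were found more often in the tags than beside them, as described further on. The first set holds staggered 5′ ends in the coding sequence of mt-Co1, which encodes a subunit of cytochrome c oxidase. The coordinates are those of mm9 and the sequences are given 5′ to 3′, as read on the strand named.
mt-Co1, chrM:5739-5764, plus strand: catgcaggagcatcaGTAGAcctaac
mt-Co1, chrM:5740-5765, plus strand: atgcaggagcatcaGTAGAcctaaca
mt-Co1, chrM:5741-5765, plus strand: tgcaggagcatcaGTAGAcctaaca
mt-Co1, chrM:5742-5765, plus strand: gcaggagcatcaGTAGAcctaaca
mt-Co1, chrM:5744-5765, plus strand: aggagcatcaGTAGAcctaaca
The second set holds much-read starts of genes with many reads, except that of Gm15564, which was chosen for its large fall. As background, the tag of Rnf214 begins like the 5′ end of an alanine tRNA and that of Ndufs7 like an asparagine tRNA, and those of AA474408 and Gm15564 resemble 28S ribosomal RNA. These identities come from general knowledge and were not checked against a tRNA or rRNA reference.
Rnf214, chr9:45704123-45704145, minus strand: ggggaTGTAGctcagtgGTAGAg
Ndufs7, chr10:79711904-79711923, plus strand: gtctctgtggcgcaatcggt
AA474408, chr7:117203269-117203286, minus strand: atccttcgatGTCGGctc
Gm15564, chr16:35981815-35981832, minus strand: ggtttagaccgtcgtgag
Snrpb, chr2:129998674-129998694, minus strand: ttGACTGaagctgatgatgcg
B230208H11Rik, chr10:12642388-12642408, minus strand: tggacatatgtctgcgtgggt
The third set holds tags of 18 nucleotides in 5′ UTRs, most of them close to an annotated transcript start.
3110040N11Rik, chr7:88934307-88934324, minus strand: gcttgcTGTAGGTCGGtg
Zfp938, chr10:81703995-81704012, minus strand: aggctctgtggaaGTCGG
Lamtor2, chr3:88356819-88356836, minus strand: gctgcGACTGTAGgggtg
Cdk19, chr10:40069158-40069175, plus strand: agggaggaggcgGGACTG
The last pair shows tags that carried nearly all reads of their gene at a single 5′ end.
Wscd1, coding sequence, chr11:71585436-71585458, plus strand: acatGACTGtggagacgtgttct
5330434G04Rik, a noncoding gene, chrX:102544948-102544969, minus strand: tcatcatctgggaataataggt

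Exonic fragments were a small share of both libraries. They took 24305 young reads, 0.537% of the library (95% Wilson interval 0.531 to 0.544), and 30624 old reads, 0.460% (0.455 to 0.465). The ratio of old to young shares was 0.856 (exact binomial interval 0.842 to 0.870). These 95% intervals, and those given in parentheses below, cover counting error only, and reads of 1 library are PCR products and not independent molecules. Tags on annotated miRNA genes took 60.6% and 63.4% of the reads, a ratio of 1.05. The direction of the exonic ratio depended on the scaling. The median 5′ start of all matched tags was lower in the old library by 0.50 on the log2 scale, and with TMM factors, which set that shift near 0, the exonic ratio was 1.22. Changes below are relative to total reads unless the sentence says otherwise, and TMM factors add 0.51 to every log2 ratio. A fall of less than 0.51 on the log2 scale therefore becomes a rise under TMM factors, which holds for coding sequence, for the 3′ UTR, for noncoding transcripts of coding genes, for the neuronal list and for transcript positions from 100 to 1000 nucleotides.

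Most exonic fragments were rare. Of the tags, 92.0% had a single read and 3.51% (1545 tags) were found in both libraries, and the most-read tag had 368 reads. A single genome position was the only match for 72.2% of the reads. Few matched a listed miRNA by sequence. Only 22 tags, with 31 young and 14 old reads, shared their first 18 bases with 1 of the 1738 mature miRNAs in the RefSeq table, and 65 tags lay inside a hairpin of that table. This comparison cannot find miRNAs that the table does not list.

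In length and first base the exonic fragments differed from miRNAs. Reads of 17 to 18 nucleotides made up 35.1% of exonic reads in the young and 26.2% in the old library, against 0.398% and 0.272% for miRNA genes. The length of most miRNAs, 21 to 23 nucleotides, held 27.4% and 32.4% of exonic reads and 91.2% and 94.3% of miRNA reads. The first base was a thymine, written for uracil, in 21.1% and 19.5% of exonic reads and in 82.0% and 88.3% of miRNA reads. Mean GC content of the exonic reads was 53.3% in the young and 49.8% in the old library, and that of the miRNA reads 42.0% and 39.3%.

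**Figure D1:**
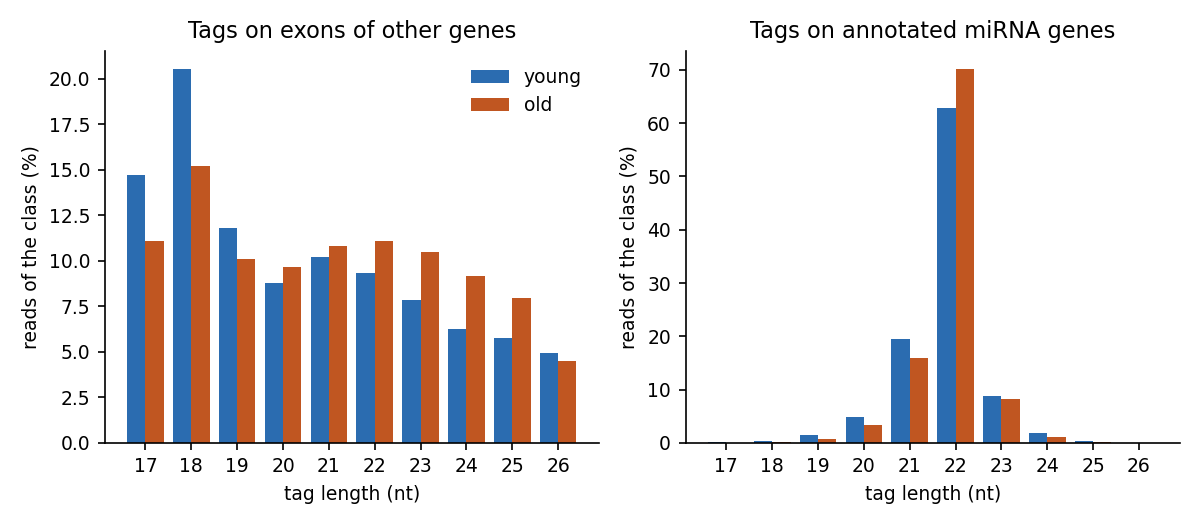
Share of reads (%) at each tag length (nt) in the young and old libraries, for tags on exons of other genes (left) and for tags on annotated miRNA genes (right). Exonic reads had a mode of short tags, with 35.1% young and 26.2% old reads at 17 to 18 nucleotides, where miRNA genes had 0.398% and 0.272%.

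The fragments had a base composition of their own, apart from the exons around them. Over 34282 nuclear tags with a single match, guanine made up 32.4% of the bases near the tag ends, against 26.9% of the 10 bases upstream and 27.1% of the 10 bases downstream. Cytosine made up 19.9% inside and 25.6% and 24.7% outside. The change came at the tag border. Adenine was the first base of 35.5% of the tags, and guanine was the third base of 41.7%.

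**Figure D2:**
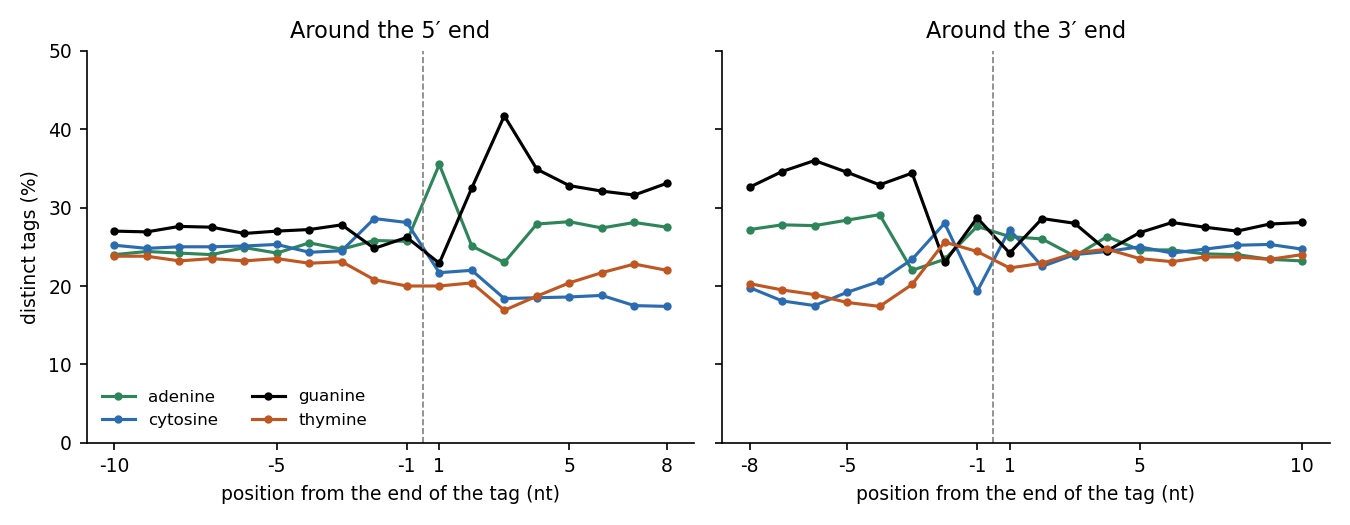
Share of distinct tags (%) with each base by position (nt) from the 5′ end (left) and the 3′ end (right), where negative positions lie before the end and the dashed line marks the border of the tag. Guanine reaches 41.7% at the third base inside the tag and lies between 24.8% and 27.8% at the 10 positions upstream.

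Short words also differed between the tags and the exons around them. Each of 32383 tags was set beside windows of its own length displaced by 50 nucleotides within the same exon, 52027 windows in all. Among words of 5 bases in at least 1% of tags, the 10 most in excess had ratios of 3.46 to 5.61, and several of them overlap each other. GTAGA was found in 6.13% of tags and 1.09% of windows, a ratio of 5.61. GACTG was found in 9.88% of tags and 2.08% of windows, a ratio of 4.75. The other words were GAACG, at a ratio of 4.23, then TGTAG at 4.08 and GTCGG at 4.07, followed by GGACT at 3.87 and CGGAC at 3.86, and then by TCGGA at 3.80, with GGACG at 3.52 and AACGG at 3.46. The excess was on the sense strand. The reverse complement of GTAGA was in 0.547% of tags and 1.11% of windows, and that of GACTG in 0.936% and 1.62%. At the other end, CCCCC was in 0.167% of tags and 1.84% of windows, and all 10 words most depleted were rich in cytosine.

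At least 1 of the 5 leading words was held by 23.9% of tags and by 5.43% of windows. The share was 26.7% in the first 100 nucleotides of transcripts and 23.4% beyond 1000 nucleotides. The share of tags with any of the 5 words was alike in the libraries, at 24.2% of young and 24.0% of old tags. The single words differed in direction. GTAGA was in 5.00% of young and 6.98% of old tags, and TGTAG in 4.86% and 5.77%. The others fell, GTCGG from 4.03% to 2.49%, GACTG from 10.5% to 9.63% and GAACG from 3.42% to 3.08%. The ratio of old to young reads was 0.804 (0.771 to 0.837) for tags with such a word and 0.836 (0.816 to 0.856) for tags without, and the 2 intervals overlapped. The part of adapter ligation in these words was not tested.

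Coding sequence held more exonic reads than any other part, and the 5′ UTR differed most between the libraries. Coding sequence took 40.1% (39.5 to 40.7) of young exonic reads and 43.6% of old ones (43.1 to 44.2), the 3′ UTR 20.4% (19.9 to 20.9) and 23.7% (23.2 to 24.2), and the 5′ UTR 22.4% (21.9 to 23) and 14.1% (13.7 to 14.5). In reads per 1000000 total reads (RPM) the 5′ UTR fell from 1206 in the young to 648 in the old library, a ratio of 0.537 (0.516 to 0.559). With TMM factors this ratio stays under 1, since its log2 value of -0.90 is a larger change than the shift of 0.51. The ratio was 0.931 (0.907 to 0.956) in coding sequence and 0.995 (0.960 to 1.03) in the 3′ UTR. Coding reads include mitochondrial messages, described below, such as mt-Co3 with 132 young and 302 old reads. Reads of the 3′ UTR include Lars2 with 347 and 291 and AA474408 with 193 and 147. The ratios of the parts without these genes were not computed. Tags of the 5′ UTR were short, 18.8 nucleotides on average, and had a GC content of 63.7%, against 21.1 nucleotides and 50.1% in coding sequence. Noncoding genes had a ratio of 0.679 (0.623 to 0.741), pseudogenes 0.615 (0.521 to 0.726) and noncoding transcripts of coding genes 0.774 (0.707 to 0.847). Tags with matches in several parts, a class led by the mitochondrial genes and their nuclear copies, had a ratio of 1.19 (1.13 to 1.26).

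The 5′ ends gathered at transcript starts. For single-match nuclear tags the distance was measured along the spliced transcript to the nearest annotated start. The first 100 nucleotides held 33.3% of young and 21.9% of old reads on these tags, spread over 4352 genes, of which 2423 had a single read there. The level fell with distance from the start, from 548 RPM in the young and 291 RPM in the old library in the first 20 nucleotides to 84.7 and 53.5 at 81 to 100 nucleotides. The ratio of old to young rose with distance. It was 0.543 (0.522 to 0.564) within 100 nucleotides, 0.773 (0.711 to 0.841) beyond 100 and up to 200, 0.822 (0.779 to 0.868) up to 500, 0.922 (0.871 to 0.975) up to 1000 and 1.08 (1.05 to 1.12) beyond 1000.

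**Figure D3:**
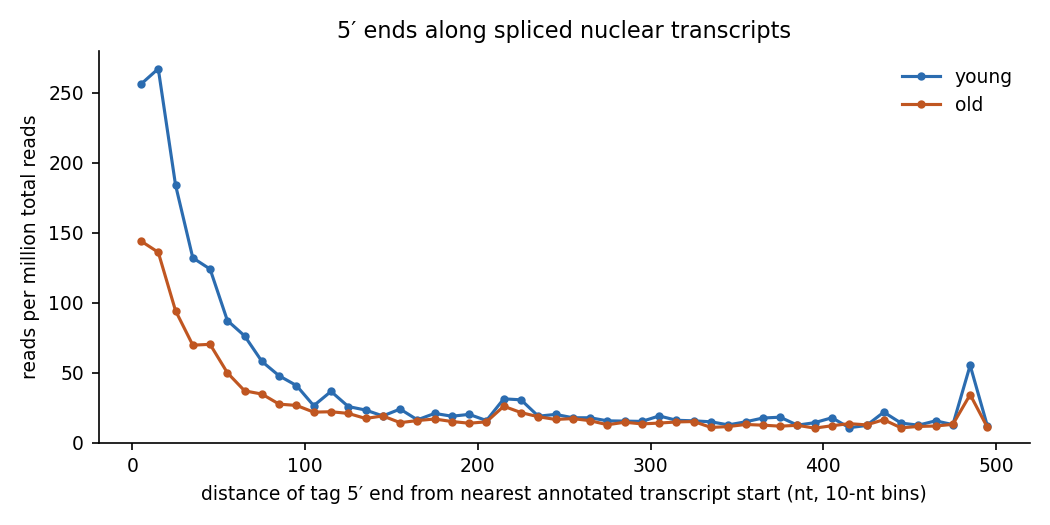
RPM, reads per 1000000 total reads, in bins of 10 nt by distance of the tag 5′ end from the nearest annotated transcript start, in the young and old libraries, for nuclear tags with a single match. Both lines peak within 20 nt of the start, where the young library had 548 and the old library 291 RPM, and the rise near 480 nt is the leading start of B230208H11Rik.

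Fragments near the start were shorter and richer in GC, and both properties also went with the ratio. Of the reads in the first 100 nucleotides 56.2% were 17 to 18 nucleotides long and their GC content was 62.9%, against 15.3% and 46.6% beyond 1000 nucleotides. Among tags of 17 to 18 nucleotides with at least 60% GC, the ratio was 0.485 (0.456 to 0.516) in the first 100 nucleotides and 0.665 (0.542 to 0.816) beyond 1000. With 19 to 26 nucleotides and at least 60% GC the values were 0.486 (0.448 to 0.526) and 0.877 (0.782 to 0.983). With 19 to 26 nucleotides and lower GC they were 0.786 (0.719 to 0.858) and 1.15 (1.10 to 1.19), and with 17 to 18 nucleotides and lower GC 0.537 (0.487 to 0.592) and 0.981 (0.896 to 1.07). In each of these 4 classes the ratio was lower near the start. Within each of these zones it was also lower for GC-rich tags in both length classes, though for the short tags near the start the intervals overlapped. The libraries differ in reads with an undetermined base as well, 4.57% young and 1.07% old, whose part in these ratios was not tested.

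**Figure D4:**
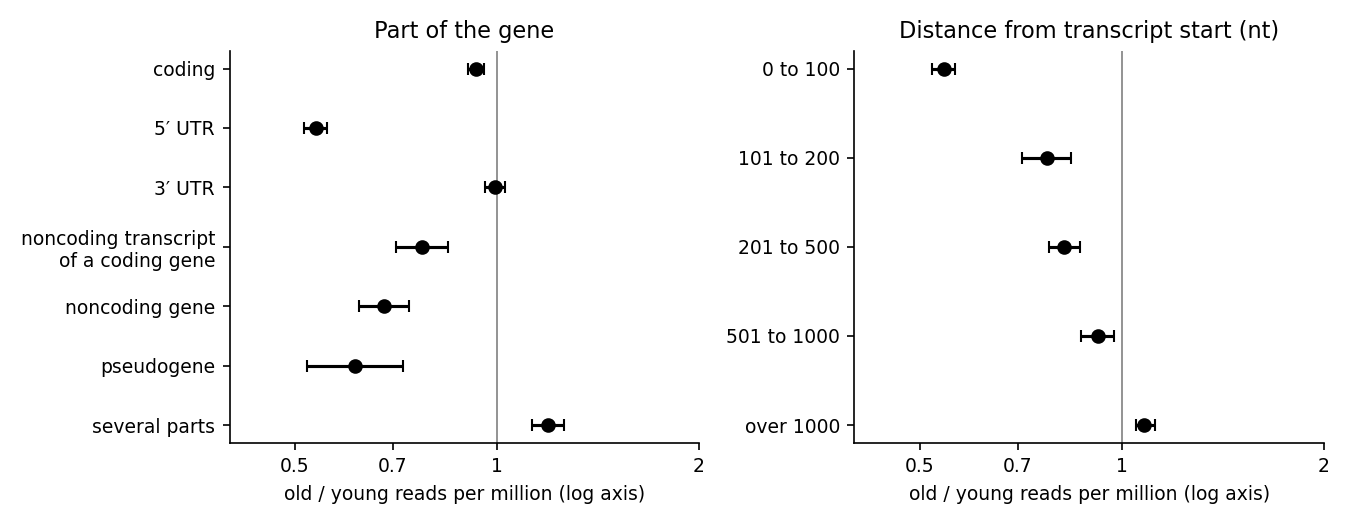
Ratio of old to young RPM (log axis) by part of the gene (left) and by distance from the nearest transcript start (right), with points for the ratio and bars for the 95% exact binomial interval of counting error. The 5′ UTR lies lowest among the parts at 0.537, and along transcripts the ratio goes from 0.543 within 100 nt to 1.08 beyond 1000 nt.

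Single genes had few reads in their first 100 nucleotides, and some with the most are given here. Rbm14, an RNA-binding protein, had 30 young and 14 old reads there, a ratio of 0.317 (0.155 to 0.617). The immediate early gene Fos had 20 and 12 (0.408, 0.182 to 0.875), the transcription factor Foxo3 18 and 11 (0.415, 0.177 to 0.928) and Tsc22d1 22 and 11 (0.340, 0.149 to 0.731). The intervals of these 4 genes lay under 1. Those of others did not. Hspb6, a small heat shock protein, had 25 and 38 reads (1.03, 0.607 to 1.78), and Gas5, a noncoding RNA that hosts snoRNAs, had 16 and 23 (0.976, 0.494 to 1.98).

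Counts per gene were low. A library had at least 10 reads for 401 genes, of which 50 were at least 2-fold higher and 71 at least 2-fold lower in the old library, 12.5% and 17.7%, with a median log2 ratio of 0.03. Among the 771 genes of any type counted in the same way, 8.43% were at least 2-fold higher and 23.2% at least 2-fold lower, with a median of -0.32. The counting interval lay above 1 for 10 of the 50 and below 1 for 46 of the 71. With TMM factors 111 genes were higher and 30 lower. The 5′ UTR was the part with the most reads in 34 of the 71 lower genes (47.9%), in 2 of the 50 higher genes (4%) and in 39 of the 280 genes in between (13.9%). The 3′ UTR was that part in 3 of the lower (4.23%), 15 of the higher (30%) and 61 of the genes in between (21.8%).

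Most 5′ starts past the 2-fold line lay in a few RNAs. Of 120 starts with at least 10 reads in a library, 34 were at least 2-fold higher (28.3%) and 31 at least 2-fold lower (25.8%). Among all 2136 starts of matched tags 8.47% were higher and 31.6% lower. Mitochondrial messenger RNAs supplied 30 of the 34 higher starts and none of the 31 lower ones. Lars2, AA474408 and Gm15564 supplied 20 of the 31 lower starts and 2 of the 34 higher ones. The same RNAs were also frequent among the 55 starts that passed neither line. Of these, 24 were mitochondrial and 10 lay in Lars2, AA474408 or Gm15564. Neighbouring starts, such as those of mt-Co1 printed above, were counted separately.

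Fragments of mitochondrial messenger RNAs were higher in the old library. The 13 messages encode subunits of the respiratory chain and of ATP synthase. All tags that match them, including those shared with nuclear copies, gave 1479 young and 3605 old reads, which is 6.09% and 11.8% of exonic reads and a ratio of 1.66 (1.56 to 1.76). Tags that match no other gene gave a ratio of 1.45 (1.33 to 1.59), and by these own tags only mt-Atp6 passed the 2-fold line (6 young and 24 old reads, 2.72, 1.08 to 8.13). In contrast to tags near transcript starts, mitochondrial tags had a mean length of 22.1 nucleotides and a GC content of 43.0%. Both values are on the side on which the ratio of nuclear tags was higher, and their part in the mitochondrial ratio was not tested.

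The mitochondrial genes differed among themselves. mt-Co1 had 531 young and 1569 old reads, 117 and 236 RPM, a ratio of 2.01 (1.82 to 2.22), and 84.0% of these reads also matched a nuclear copy such as Gm13340. Its own tags gave 104 and 231 reads, a ratio of 1.51 (1.19 to 1.92). mt-Cytb, the cytochrome b gene of complex III, had 84 and 255 reads, a ratio of 2.06 (1.61 to 2.67), with 5.90% shared. mt-Co2 had 230 and 522 reads (1.54, 1.32 to 1.81) and mt-Co3, all of whose tags are its own, 132 and 302 (1.55, 1.26 to 1.92). For complex I, mt-Nd1 had 74 and 172 reads (1.58, 1.20 to 2.10) and mt-Nd2 63 and 130 (1.40, 1.03 to 1.93). The intervals of mt-Nd3 (20 and 47 reads, ratio 1.60), mt-Nd4 (76 and 133, 1.19), mt-Nd4l (58 and 114, 1.34), mt-Nd5 (104 and 174, 1.14) and mt-Atp6 (73 and 131, 1.22) held 1. mt-Atp8 had 6 and 23 reads, a ratio of 2.60 with a wide interval (1.03 to 7.82). mt-Nd6, the single message of the other strand, had 28 and 33 reads, a ratio of 0.801 (0.469 to 1.38). Per kilobase of gene, mt-Co1 led with 76.0 young and 153 old RPM, followed by mt-Co2 with 74.3 and 115, while mt-Nd6 had 11.9 and 9.55.

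**Figure D5:**
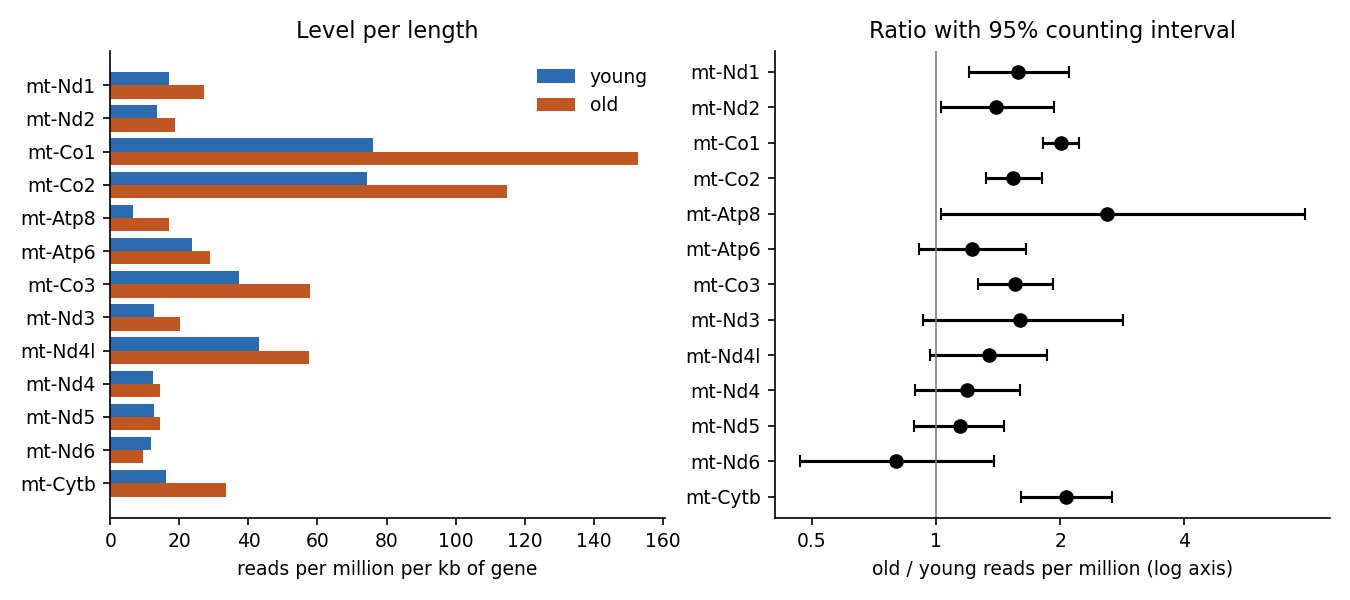
RPM per kilobase of gene in the young and old libraries (left) and the ratio of old to young with its 95% counting interval on a log axis (right), for the 13 mitochondrial messenger RNAs in genome order. mt-Co1 and mt-Cytb have ratios of 2.01 and 2.06, and mt-Nd6 lies lowest at 0.801.

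A window of 6 bases in mt-Co1 held much of this, chosen as the run of starts with at least 50 reads around the most-read start. The reads of both libraries were summed for this choice, and most came from the old library. Of the 6 starts, only that at 5739 had 50 or more young reads. The choice therefore favoured starts high in the old library, and the ratios inside the window are a description only. The 46 tags starting from position 5739 to 5744, of which 5 starts are printed above, all match Gm13340 as well and had 221 young and 843 old reads, 41.6% and 53.7% of all reads of the gene. The ratio was 2.59 (2.23 to 3.02) in the window and 1.59 (1.39 to 1.82) for all other starts of mt-Co1. The start at 5739 had 56 young and 263 old reads (3.19, 2.38 to 4.34), that at 5740 had 30 and 139 (3.15, 2.11 to 4.84), that at 5741 45 and 125 (1.89, 1.33 to 2.72) and that at 5742 42 and 161 (2.60, 1.84 to 3.75). All 6 starts of the window were higher in the old library, the direction that the choice favoured. Without the window the mitochondrial messages together had a ratio of 1.49 (1.39 to 1.60), and without mt-Co1 1.46 (1.35 to 1.58).

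Among the starts with the largest rise, 2 more lay in mt-Co1, where the tags at chrM:6205-6224 had 1 young and 12 old reads (8.15, 1.21 to 348) and those at chrM:6209-6229 had 1 and 10 (6.79, 0.966 to 295). The start of mt-Co3 at chrM:8836-8860 had 2 and 18 reads (6.11, 1.46 to 54.3), and that of mt-Nd5 at chrM:12786-12807 had 2 and 14 (4.76, 1.09 to 43.1). With so few young reads the intervals are wide.

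Fragments of Lars2, AA474408 and Gm15564 were lower in the old library. Lars2, the mitochondrial leucyl-tRNA synthetase, and the genes AA474408 and Gm15564 together had 1384 young and 959 old reads, a ratio of 0.471 (0.433 to 0.511). Lars2 had the most reads of any gene by its own tags, 349 young and 292 old (0.568, 0.485 to 0.666), with 99.5% in the 3′ UTR. Its tags with a single match had 44 and 22 reads, a ratio of 0.340 (0.194 to 0.579). AA474408 had 193 and 147 (0.517, 0.415 to 0.645), all in the 3′ UTR, and Gm15564 66 and 28 (0.288, 0.178 to 0.455). The start of AA474408 printed above, which has 5 matches and is shared with Lars2, had 91 young and 35 old reads (0.261, 0.172 to 0.390). Neighbouring starts went opposite ways. In Lars2 the start at chr9:123370920-123370940 had 15 young reads and 1 old read (0.0453, 0.00108 to 0.294), while that at chr9:123370936-123370961 had 2 and 15 (5.09, 1.18 to 45.9). Other large falls were those of AA474408 at chr7:117203348-117203366 (13 and 2 reads, 0.105) and chr7:117203349-117203367 (22 and 4, 0.124), of Gm15564 at the start printed above (10 and 1, 0.0679) and of the splicing gene Snrnp48 in coding sequence (10 and 2, 0.136, 0.0145 to 0.638). Reads of any ribosomal RNA copies and of the messages of these genes cannot be told apart here.

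The start with the most reads of all was the one that resembles an alanine tRNA. Tags with the first 18 bases of the printed Rnf214 tag had 448 young and 636 old reads, a ratio of 0.964 (0.853 to 1.09), in exons of Rnf214, Ano3, Dennd5b and Gss. The most-read of them has 58 perfect matches in the genome, few of which lie in exons, and reads of these exons and of tRNA genes elsewhere cannot be told apart. The letters TAGCTCAG, found near the 5′ end of many tRNAs, were in 35 member tags (0.0794%) with 469 young and 677 old reads (0.981, 0.870 to 1.11), and their reverse complement in 18. The start of Ndufs7, a subunit of complex I, lies in its 5′ UTR, where RefSeq lists the asparagine tRNA n-TNgtt7 within the span of the gene. This start has 9 matches in the genome and had 18 young and 59 old reads, a ratio of 2.23 (1.30 to 4.01). All tags of Ndufs7 gave 25 and 67 reads, a ratio of 1.82 (1.13 to 3.01), but tags with a single match gave only 3 young reads and 1 old read, a ratio of 0.226 (0.00431 to 2.82), so the direction rests on tags with several matches. Rnf214 likewise had 110 and 196 reads (1.21, 0.954 to 1.54) from all its tags and 3 and 3 (0.679, 0.0910 to 5.07) from those with a single match.

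Starts in a few further genes were lower in the old library. That of B230208H11Rik, a long intergenic noncoding RNA in whose span RefSeq lists the leucine tRNA n-TLtaa3, had 140 young and 117 old reads (0.568, 0.440 to 0.731). That of Snrpb, a core protein of spliceosomal snRNPs, had 121 and 84 (0.472, 0.353 to 0.628). It lies in an exon of a noncoding transcript of the gene, and whether it comes from a small RNA that the annotation lacks was not tested. Snrpb as a whole had 229 young and 183 old reads (0.543, 0.445 to 0.662). Rian, a noncoding RNA that hosts many snoRNAs, had 45 reads on its leading start, 28 young and 17 old (0.412, 0.212 to 0.780).

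Genes with the largest rises and falls had few reads in 1 of the libraries. Nrxn3, a synaptic adhesion protein, had 0 young and 12 old reads, and the counting interval of its ratio began at 1.89. Plekhb1 had 1 and 12 reads (8.15, 1.21 to 348), Lonrf2 1 and 11 (7.47, 1.09 to 322), Prrc2b 2 and 20 (6.79, 1.65 to 59.9) and Ggnbp2 2 and 13 (4.42, interval up to 40.3), and the last of these had 1 and 12 (8.15, 1.21 to 348) from single matches. These reads lay in coding sequence and 3′ UTR. Among the falls, Lyrm5 had 18 young reads and 1 old read (0.0377, 0.000906 to 0.239), 94.7% of them in the 5′ UTR. Arpp21, which carries the precursor of miR-128-2, had 10 and 1 (0.0679, 0.00157 to 0.478), Galnt7 12 and 2 (0.113, 0.0123 to 0.509), the potassium channel subunit Kcnab2 10 and 2 (0.136, 0.0145 to 0.638) and the kinase Brsk1 12 and 3 (0.170, 0.0308 to 0.629).

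Markers of brain cells were present at low counts, and few of them passed the 2-fold line. Of 10 astrocyte markers 7 had at least 10 reads and none was called, with a median log2 ratio of 0.30 beside 0.03 for all genes of the members. The glutamate transporter Slc1a2 had 40 young and 108 old reads, 75% of them in the 3′ UTR, a ratio of 1.83 (1.27 to 2.71). Glutamine synthetase, Glul, had 43 and 61 (0.964, 0.642 to 1.46), Sparcl1 27 and 49 (1.23, 0.756 to 2.05), Apoe 7 and 20 (1.94, 0.788 to 5.43) and Clu 6 and 15 (1.70, 0.623 to 5.34). Aldoc had 12 and 14 (0.793, 0.340 to 1.88) and Slc1a3 11 and 10 (0.618, 0.235 to 1.60). Summed over the list, with 153 young and 294 old reads, the ratio was 1.31 (1.07 to 1.60). Slc1a2 alone supplied 40 and 108 of these reads and was the only one of the 7 whose interval lay above 1. Glul, Aldoc and Slc1a3 had ratios under 1, and the sum without Slc1a2 was not computed.

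Neuronal markers had a summed ratio of 0.956 (0.799 to 1.15) with 9 of 17 at 10 reads. The kinesin Kif5a had 26 and 42 reads (1.10, 0.657 to 1.86) and the synaptic protein Snap25 25 and 37 (1.01, 0.589 to 1.74). The neurofilament gene Nefm was called higher with 2 and 10 reads, though its interval held 1 (3.40, 0.724 to 31.9). Calm2, Syt1, Camk2a and Camk2b had ratios from 0.618 to 1.25 with intervals that held 1. Of the oligodendrocyte markers, the myelin genes Mbp (17 and 37 reads, 1.48, 0.812 to 2.80) and Mobp (14 and 16, 0.776, 0.355 to 1.72) were measured and neither was called.

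Markers of other cells were scarce. No microglial, blood or endothelial marker reached 10 reads, and the 3 lists had 2 young and 12 old, 1 and 4, and 2 and 4 reads. The choroid plexus genes Ttr, which carries thyroid hormone (12 and 8 reads, 0.453, 0.161 to 1.20), and Enpp2 (14 and 9, 0.437, 0.167 to 1.08) were both called lower with intervals that held 1.

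Among other lists, histone genes had 2 measured members of 79, and both were lower. Hist1h3f had 16 young and 7 old reads (0.297, 0.103 to 0.764) and Hist1h3i 11 and 4 (0.247, 0.0574 to 0.834), and the sum over 25 histone genes with reads had a ratio of 0.545 (0.373 to 0.795). No ribosomal protein gene reached 10 reads, and 45 of 84 with any reads summed to 65 and 64 (0.669, 0.466 to 0.959). Of the genes of small RNA biogenesis none reached 10 reads either, with 10 young and 32 old reads in all (2.17, 1.04 to 4.96). Ttyh1, a membrane protein of glia and neurons, had 136 and 169 reads (0.844, 0.670 to 1.07), 97.4% in a noncoding transcript. Its tags with a single match had 2 and 6 reads and the opposite direction (2.04, 0.364 to 20.6). Malat1, a nuclear noncoding RNA, had 173 and 238 reads (0.935, 0.765 to 1.14) over 366 tags, Meg3 20 and 31 (1.05, 0.581 to 1.95) and Rian 39 and 34 (0.592, 0.363 to 0.963). Of the translation factors Pabpc1 was called lower (10 and 7 reads, 0.476, 0.154 to 1.38) and Eef1a2, Eef2 and Eif4a2 were not. Of the genes that host snoRNAs, Gas5, Ncl, Eef2 and Eif4a2 were measured and none was called. The imprinted gene Peg3 had 12 and 14 reads (0.793, 0.340 to 1.88).

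A dominant 5′ end was seen in few genes, though most had few reads to show one. The most-read start had a single read in 217 of 727 genes and 5 reads or more in 143. For these 727 genes with at least 10 reads over both libraries on starts of 18 bases, the most-read start held 12% of the reads at the median, with quartiles of 8.47% and 20%. In 507 genes the share was under 20%, and at the median 6 starts were needed to hold 50% of the reads. The 11 mitochondrial genes measured by their own tags had a median share of 11% and a highest share of 23.1%.

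In 63 genes (8.67%) a single start held 50% or more. Of these starts 34 lay in 5′ UTRs, 15 in coding sequence and 4 in 3′ UTRs. Tags of 18 nucleotides were the leading form in 40 of the 63. The distance to an annotated transcript start was measured for the 49 starts with a single match, of which 37 began within 100 nucleotides. Of all reads on nuclear tags with a single match, 33.3% of young and 21.9% of old ones lay there. Of all exonic reads, 22.4% of young and 14.1% of old ones lay in 5′ UTRs, and 20.5% and 15.2% had 18 nucleotides. At least 1 of the 10 words printed in capitals was held by 36 of the 63 starts, and 7 had 9 or more matches in the genome. The words were chosen for their excess in nuclear tags with a single match, and 49 of the 63 starts have a single match. The share of all tags with any of the 10 words was not computed, so the 36 are a description only. Of the 143 genes with at least 10 reads in each library, 37 had the same leading start in both, and in 16 of them that start held 50% or more in each.

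In coding sequence, the leading start of Wscd1 held 114 of 118 reads of the gene (96.6%), 50 young and 64 old, a ratio of 0.870 (0.591 to 1.29). Its tag of 23 nucleotides has a single match in the genome and begins 219 nucleotides from the nearest transcript start. In the noncoding gene 5330434G04Rik, 81 of 84 reads (96.4%) began at the start printed above, 25 young and 56 old (1.52, 0.934 to 2.54). RefSeq places miR-325 within the span of this gene, but no hairpin of the RefSeq table holds the tag.

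Among the starts led by tags of 18 nucleotides, that of 3110040N11Rik lay 27 nucleotides from the transcript start and held 34 of 37 reads (91.9%), 12 young and 22 old (1.25, 0.590 to 2.76). For Zfp938 24 of 29 reads (82.8%) began 6 nucleotides from it, 10 young and 14 old (0.951, 0.393 to 2.39). Lamtor2, a subunit of the Ragulator complex, had 21 of 33 reads on a start 110 nucleotides from it, 14 young and 7 old (0.340, 0.116 to 0.899), and Cdk19 11 of 18, 7 and 4 (0.388, 0.0833 to 1.53). Hspb6 had 51 of 61 reads (83.6%) on a start 41 nucleotides from it, 20 young and 31 old (1.05, 0.581 to 1.95), and Jund, a transcription factor, 33 of 40 (82.5%) on a 5′ UTR start 1216 nucleotides from it, 22 and 11 (0.340, 0.149 to 0.731). Over the 63 leading starts, 4 had a ratio of 2 or more and 23 a ratio of 0.5 or less, with no minimum of reads in a library. The shares over all matched starts with at least 10 reads in a library, given above, were 8.47% and 31.6%.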

How the data were processed

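The deposited values are raw read counts for each distinct tag, not normalized. Per the study's methods the authors aligned raw sequences to mm9 by SOAP and removed adapter sequence at the 3′ end. The version of SOAP is not given in the sources used here.

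Every tag without an undetermined base was searched for perfect matches in NCBIM37, the assembly of mm9, by an exact scan of both strands, and matches were intersected with GENCODE M1 exons (bedtools 2.31.1, Python 3.11.15). A tag was kept when a whole match lay inside an exon on its strand and no match overlapped an annotated small RNA gene on that strand. Each match was assigned to coding sequence before 5′ UTR before 3′ UTR, and a gene received the tags whose exonic matches lay in that gene only. Tags sharing their first 18 bases formed 1 start. Ratios compare shares of total reads, with 0.5 in place of a count of 0. Intervals are 95% Wilson intervals for shares and exact binomial intervals for ratios. With 1 library per age edgeR's quasi-likelihood test could not be fitted, so no p-value is given. TMM factors (edgeR 4.0.16) and size factors (DESeq2 1.42.0) served as alternative depths. The calling was run on simulated counts with counting error only and planted changes larger than 2-fold. This does not measure error beyond counting, such as that of PCR or between mice.

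The members and lists were chosen with earlier results of these data known. Named are the 10 genes and 10 starts with the most reads, the 5 genes and 5 starts that rose most and the 5 of each that fell most, the 3 leading genes of each part, and list members with at least 10 reads, a few of which are not reported here. The zones along transcripts, the 5-base words, the mt-Co1 window, the grouping of Lars2 with AA474408 and Gm15564, the genes with 50% or more of their reads on 1 start, the 18-nucleotide starts and the other genes of the first 100 nucleotides were chosen after their values were seen.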

Additional observations from a re-analysis of the deposited data

How the results depend on the processing

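With 1 library for each age there is no replicate error, and for many genes with 10 reads a 2-fold ratio lies within counting error. Of 140 values recomputed under an alternative, 83 moved by less than 1.5 times for a count or stayed inside the counting interval for a ratio or share. No paired analysis was possible because each age has 1 library. The cause of the changes below was not tested. The TMM and DESeq2 scaling of the share, of the first 100 nucleotides and of the mitochondrial messages, the first 17 bases as a start, and the own tags of the mitochondrial messages were chosen after seeing the data.

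The ratio of the exonic shares, 0.856, was 0.827 with matched reads as depth, 0.917 with matched reads outside miRNA genes, 1.22 with TMM factors and 1.21 with DESeq2 size factors, which reverses its direction, and 0.841 with single matches. The mitochondrial ratio, 1.66, was 1.77 outside miRNA genes, 2.36 with TMM and 2.34 with DESeq2 factors, and 1.45 from tags of 1 gene. In the first 100 nucleotides the ratio of 0.543 was 0.582, 0.773 and 0.768 in the same order of depths, and 0.503 from tags with 2 reads or more.

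Genes higher and lower, 50 and 71, were 111 and 30 with TMM factors, 110 and 30 with DESeq2 factors, 1587 and 3516 with no minimum, 0 and 2 with a minimum of 50 reads, and 4 and 27 from tags with 2 reads or more. Starts higher and lower, 34 and 31, were 1020 and 14952 with no minimum, 6 and 2 at 50 reads, and 8 and 11 with single matches. Lower starts were 18 with either set of factors. Genes of the lists, 2 higher and 5 lower, were 13 and 2 with TMM and with DESeq2 factors, 26 and 44 with no minimum and 0 and 0 at 50 reads. The higher ones were 4 with depth outside miRNA genes and 1 with single matches, and the lower ones 2 from tags with 2 reads or more. The counts with no minimum cannot show which direction was more frequent, for genes, starts or lists. Given the value set for a count of 0 and the deeper old library, 1 young read alone is always called lower. By the same rule 1 old read alone is never called higher. Of the tags, 92.0% had a single read.

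With single matches, coding sequence took 47.0% of young and 51.7% of old reads, the 5′ UTR 26.6% and 16.8%, and the 3′ UTR 17.9% and 24.8%. Reads of 17 to 18 nucleotides were then 32.6% and 24.1%, and young reads beginning with adenine 32.2%. Counting matches that overlap an exon by 1 base gave the 5′ UTR 23.4% and 15.0% and the 3′ UTR 19.6% and 22.9%. Among the named genes, the log2 ratio from single matches was -1.56 for Lars2 against -0.82, 1.03 for Ttyh1 against -0.24, -0.56 for Rnf214 against 0.28 and -2.14 for Ndufs7 against 0.86. Genes with 50% or more of their reads on 1 start, 63, were 35 in the young and 27 in the old library alone.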
